A study of Sus scrofa with 102 samples.

Results

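The values described here are those of 15 arrays of subcutaneous fat from pigs of 5 months, chosen from the 102 arrays of the series by the title and the tissue given for each sample. They comprise 8 LWDL and 7 LWDM females. Both breed types had LWD dams, that is, crosses of Landrace, Large White and Duroc. LWDL pigs were sired by a Landrace boar and LWDM pigs by a Meishan boar, a Chinese breed known for thick backfat. A single boar of each breed and a small number of LWD females were used, so that the pigs of a breed type are related, and the breed of the sire and the individual boar cannot be told apart. The labels call the arrays of a group biological replicates. All pigs received a standard diet, and no treatment is named. Each array carried RNA of 1 pig, labeled with Cy3, beside a control that was the same on all arrays (pooled liver RNA of LWD sows, labeled with Cy5), and the dyes were not exchanged. A level is given as log2 of pig over control, so that a value can be compared between pigs for the same probe but not between probes. A difference is the mean of LWDM minus the mean of LWDL on this log2 scale, where 1 stands for 2-fold. Liver and muscle of the same age (8 LWDL and 7 LWDM arrays each) and fat at 12 days (5 LWDL and 6 LWDM arrays) are used to test where the difference in fat differed from theirs, and liver and muscle arrays of both ages in a check of the labels.

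Subcutaneous fat of the pig is the main site at which fatty acids are made from glucose, in contrast to rodents, where the liver takes a larger part. Citrate is exported from the mitochondria and cleaved to acetyl-CoA, which is built into fatty acids and triglycerides or, by a second route through mevalonate, into sterols. The transcription factors SREBP-1 and SREBP-2 are known to drive the genes of these routes. Fat tissue also holds vessels, nerves, fibroblasts and immune cells besides adipocytes. In bulk tissue such as this, fewer cells of a type and less RNA per cell cannot be told apart.

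The labels of the arrays were checked first, because a free-text note of the samples names the liver as the tissue. Of 9 named adipocyte genes 6 were above the liver control on all 15 arrays. Among these, LEP (leptin) lay between 4.32 and 5.15, PPARG, the main regulator of adipocyte formation, between 3.53 and 4.62, and CD36, a fatty acid transporter, between 8.80 and 9.14, and PLIN1, LPL and AOC3 were the others. G0S2, an inhibitor of lipolysis, was between -0.72 and 0.87, and GPAM (-5.03 to -3.46) and PCK1 (-6.10 to -2.08), which the liver also expresses, were below the control. The mean over 9 hepatocyte genes was between -5.83 and -5.17. For all 15 arrays the most similar liver array of the same breed type, out of both ages, was one labelled 5 months, and the same held for muscle. When each age was also centred, LWDL replicates 1 and 3 were nearest to a liver array of 12 days and LWDM replicate 4 to a muscle array of 12 days. Within the age, and with this centring, the most similar liver and muscle arrays carried the same animal number for 15 of 15. Centred by tissue and breed type only, they did so for 10 of 15 in liver and 13 of 15 in muscle. The share of probes well above background ran from 71.9% to 77.8% per array, and no probe was saturated. The first principal component of the 15 arrays held 41.4% of the variance and separated the breed types completely, with LWDL replicate 6 at one end. LWDM replicate 3 lay nearest to the LWDL arrays. The arrays lay on 4 slides, each with 1 breed type and 2 to a breed type, so that slides enter only as a random block.

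Of 30590 tested probes, 942 (3.08%) differed by more than 2-fold with an adjusted p below 0.05, which is what "called" means below. Of these, 540 (1.77% of the tested probes) were higher in LWDM and 402 (1.31%) were higher in LWDL pigs. The median size of a called difference was 1.27, and 116 probes were beyond 4-fold. A probe was tested only if it was well above background on all arrays of at least 1 breed type. Where it was dim in 1 breed type, detection on all arrays of the other was therefore fixed by this filter. The adjusted p alone was below 0.05 for 12103 probes (39.6%), so that the size of a difference decides most calls. For 408 called probes the values of the breed types were fully separate. Over all tested probes the breed types did not overlap for 2259 (7.38%). A gene name was at hand for 1420 tested probes (1063 genes), and 475 called probes had none. The names come from gene tables of the study, which were chosen on expression differences. One column of these tables had been chosen on 11 of the present 15 arrays. Of its 432 tested probes 393 were called, as against 74 of the 988 other named probes (7.49%). A count or a list mean of named genes is therefore not an independent measure of direction. For each gene group below the members taken from that column are given as listed genes.

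**Figure D1:**
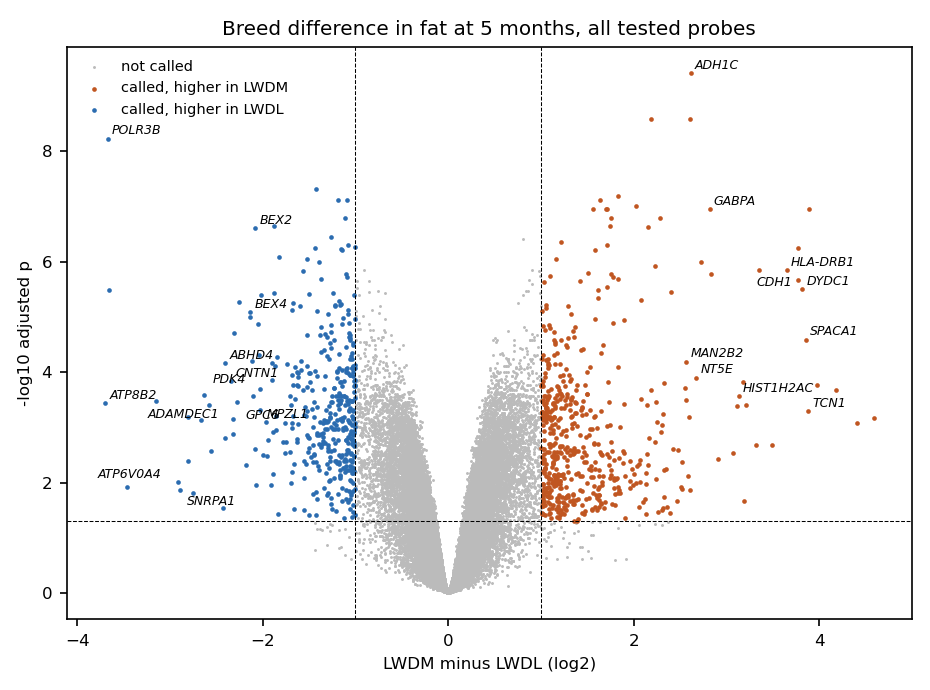
Difference between LWDM and LWDL fat at 5 months (x axis, log2) against the adjusted p (y axis, -log10) for 30590 tested probes. Orange and blue points are the 540 and 402 called probes, dashed lines mark 2-fold and an adjusted p of 0.05, and the named points are genes chosen for the size of their difference among those for which the breed types did not overlap.

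The called genes of sterol synthesis and uptake were all higher in LWDM pigs. Of 16 named and tested genes of this list, 8 were called higher in LWDM and none was called higher in LWDL, and the median difference was 1.00, where the median of all tested probes was -0.01. All 16 had a positive difference. Of these genes 7 were listed genes, and the median of the other 9, of which 1 was called, was 0.72. Without LWDM replicate 3, 9 of the 16 were called, and without LWDL replicate 6, 7. The mean over the list ran from -2.90 to -1.52 in LWDL and from -1.62 to -0.72 in LWDM pigs. The lowest LWDM value was that of replicate 3, which also had the highest level of skeletal muscle genes, given below, and the part of those in this result was not tested.

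HMGCS1, the synthase that makes HMG-CoA, was between -3.90 and -2.08 (median -2.66) in LWDL pigs and between -2.45 and -0.95 (median -1.47) in LWDM pigs, with a difference of 1.17 ± 0.26 SE (adjusted p = 0.00279, n = 8 and 7). Further down the route, IDI1, which isomerizes isopentenyl diphosphate, had the largest difference of the list (1.79 ± 0.42, adjusted p = 0.00389), although the pigs of each breed type were widely spread and LWDM replicates 1 (-3.05) and 3 (-3.81) were within the LWDL range. MVD, the mevalonate diphosphate decarboxylase, and EBP, a sterol isomerase, differed by 1.13 and 1.25. Without LWDL replicate 6 the difference of MVD was 0.96, under the limit.

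MMAB, an enzyme of cobalamin handling that shares its promoter with the mevalonate kinase gene, was between -3.09 and -1.71 (median -2.20) in LWDL pigs and between -1.44 and -0.46 (median -0.78) in LWDM pigs, a 2.50-fold difference without overlap (difference 1.32 ± 0.20, adjusted p = 0.000317), and 1 of its 2 other probes was called in the same direction. INSIG1, which holds SREBP proteins back in the endoplasmic reticulum when sterols are plentiful, differed by 1.03 ± 0.18, close to the 2-fold limit. It fell under that limit (0.95 to 0.98) without any 1 of LWDL replicates 2 and 3 and LWDM replicates 2 and 5. The genes that were not called also lay on the LWDM side. They were ACAT2 (0.98), CYP51A1 (0.87), SOAT1 (0.78), MSMO1 (0.72), SQLE (0.68), FDFT1 (0.65), FDPS (0.34, adjusted p = 0.0736) and SREBF2. SREBF2, the gene of SREBP-2 itself, was between -2.0 and -1.18 (median -1.56) in LWDL pigs and between -1.69 and -1.22 (median -1.45) in LWDM pigs, and its difference of 0.03 ± 0.12 was far smaller than the spread between pigs (adjusted p = 0.864).

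The called genes that supply and build fatty acids and triglycerides were, with 1 exception, higher in LWDM. Of 18 named and tested genes 7 were called in favour of LWDM and 1 in favour of LWDL, with a median difference of 0.64. Of these 18, 6 were listed genes, and of the 12 others 2 were called (median 0.35). The mean over the list was between 0.78 and 1.72 on the LWDL arrays and between 1.77 and 2.19 on the LWDM arrays, with LWDL replicate 6 the lowest of all. Without this array 7 of the 18 were called in all, and without LWDM replicate 3, 8.

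ACLY, the enzyme that cleaves citrate to acetyl-CoA in the cytosol, was between 1.27 and 3.33 (median 1.80) in LWDL pigs and between 2.97 and 4.07 (median 3.61) in LWDM pigs. The LWDM pigs had 3.14-fold more of it (difference 1.65 ± 0.28, adjusted p = 0.000516), and 1 LWDL pig, replicate 4 at 3.33, reached the LWDM range. ME1, the malic enzyme that yields NADPH for lipid synthesis, was between 4.08 and 6.93 (median 6.36) in LWDL pigs and between 6.06 and 8.32 (median 7.88) in LWDM pigs (difference 1.49 ± 0.41, adjusted p = 0.0104). PDHB, a subunit of the pyruvate dehydrogenase complex, which links glycolysis to acetyl-CoA, differed by 1.57 ± 0.27 without overlap (adjusted p = 0.00065).

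Among the enzymes that shape fatty acids, ELOVL5, an elongase of polyunsaturated chains, was between 0.99 and 2.26 (median 1.69) in LWDL pigs and between 2.30 and 3.60 (median 3.30) in LWDM pigs, again without overlap (difference 1.44 ± 0.24, adjusted p = 0.000445). SCD, the stearoyl-CoA desaturase that makes oleic acid, differed by 1.08 ± 0.32 (adjusted p = 0.0148). Of its 4 other probes 2 were called in the same direction. Its lowest LWDL value, 2.10 in replicate 6, stood apart from the others, and without that array the difference was 0.81 and the probe was no longer called. FASN, the fatty acid synthase, lay between 1.20 and 3.19 (median 2.78) in LWDL pigs and between 2.62 and 3.60 (median 3.30) in LWDM pigs. Its difference of 0.59 ± 0.24 did not pass the test (adjusted p = 0.0643). SREBF1, the gene of SREBP-1, differed by 0.10 ± 0.10 (adjusted p = 0.442).

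PNPLA3, a lipid droplet protein with acylhydrolase activity whose RNA is known to follow lipid synthesis, had the largest difference in this list. It was between -3.17 and 0.32 (median -0.36) in LWDL pigs and between 0.77 and 2.12 (median 1.79) in LWDM pigs, which is 4.94-fold (difference 2.31 ± 0.42, adjusted p = 0.000897), and its second probe was called in the same direction. GPAM, the first acyltransferase of triglyceride synthesis, had little spread within breed types (-4.75 ± 0.15 SD in LWDL, n = 8, and -3.69 ± 0.24 in LWDM, n = 7) and differed by 1.06 (adjusted p = 6.2e-06). LPCAT4, an acyltransferase of phospholipid remodelling, was the member called higher in LWDL (-1.08 ± 0.17, adjusted p = 0.000329). It was well above background on 6 of 7 LWDM arrays, and without LWDM replicate 1 the difference was -0.94, under the limit.

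**Figure D2:**
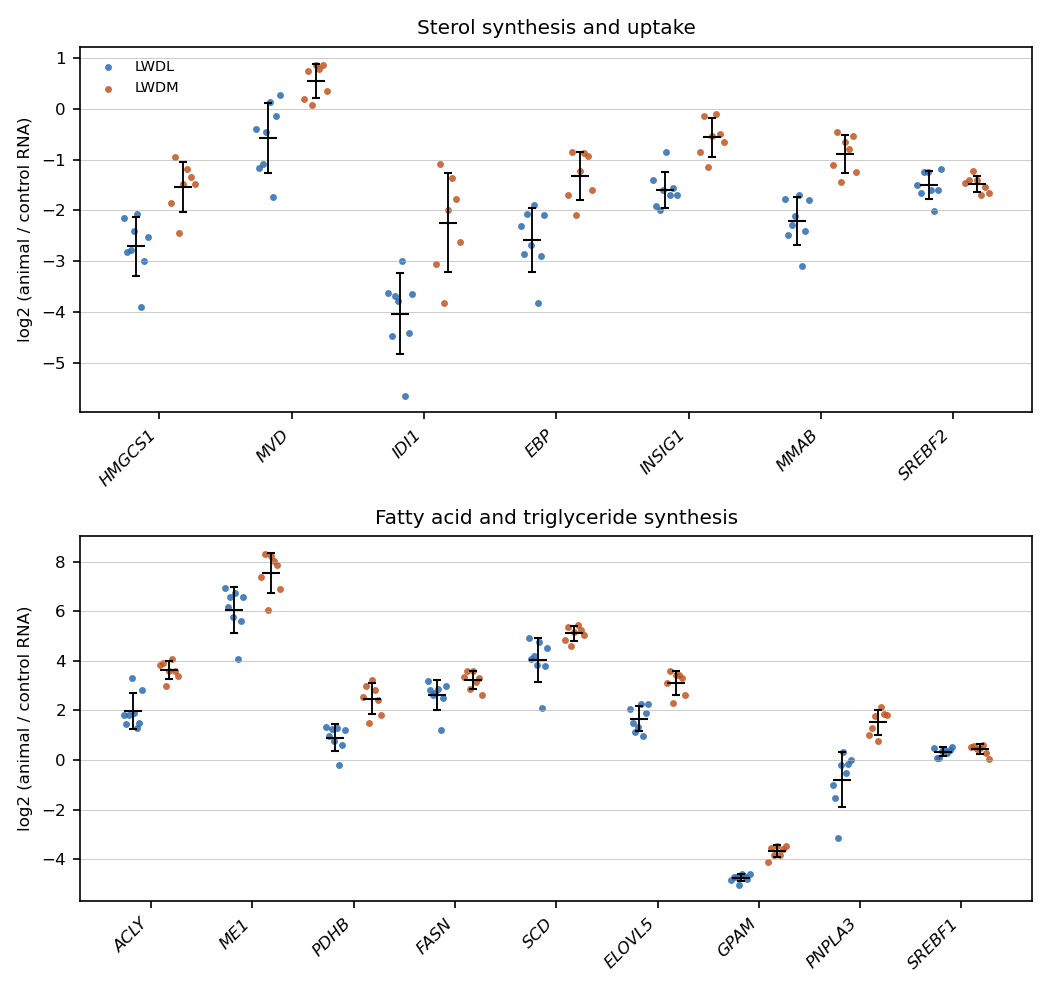
Level of 7 genes of sterol synthesis and uptake (top) and 9 of fatty acid and triglyceride synthesis (bottom) on each array, as log2 of pig over control RNA. Points are single pigs (blue, 8 LWDL, and orange, 7 LWDM), and bars give the mean and SD. The LWDM points of MMAB, PDHB, ELOVL5, GPAM and PNPLA3 all lie above the LWDL points, whereas those of SREBF2 and SREBF1 share one range.

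Genes of lipolysis and fatty acid oxidation did not move together. Of 24 named and tested genes 3 were called in favour of LWDM and 2 in favour of LWDL, and the median difference was -0.03. All 5 called genes were among its 6 listed genes. PDK4 encodes the kinase that switches off pyruvate dehydrogenase and so spares glucose when fatty acids are burned. It was between -0.84 and 2.15 (median 0.48) in LWDL pigs and between -2.45 and -1.10 (median -2.26) in LWDM pigs, with no overlap. LWDL pigs had 6.2-fold more PDK4 RNA (difference -2.63 ± 0.40, adjusted p = 0.000265), and the second probe of the gene was called in the same direction. ADRA1A, an alpha-1 adrenergic receptor, was also higher in LWDL (-1.27 ± 0.20, adjusted p = 0.000352).

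LIPG, the endothelial lipase, was between -5.23 and -2.54 (median -3.59) in LWDL pigs and between -2.58 and -1.34 (median -1.57) in LWDM pigs, a 3.37-fold difference towards LWDM (adjusted p = 0.00188). FABP5, a fatty acid binding protein, differed by 1.28 ± 0.27, and AMACR, a racemase of branched fatty acids, by 1.21 ± 0.20. LPL, the lipoprotein lipase through which adipocytes take up fatty acids, was between 6.85 and 8.17 (median 7.25) in LWDL pigs and between 6.73 and 7.67 (median 7.09) in LWDM pigs, and its difference of -0.21 did not pass the test (adjusted p = 0.428).

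Most genes that mark adipocytes themselves were not called. Of 9 named and tested markers, 7 were not called, and the median difference was -0.21. Of the 9, 1 was a listed gene, and of the 8 others 1 was called. LEP differed by -0.26 ± 0.10 (adjusted p = 0.0549), PPARG by -0.25 ± 0.13 (adjusted p = 0.121) and PLIN1, the perilipin that coats lipid droplets, by -0.35 ± 0.12 (adjusted p = 0.0275, under the 2-fold limit). Besides GPAM the called marker was PCK1, the enzyme of glyceroneogenesis, which was higher in LWDL (-1.21 ± 0.42, adjusted p = 0.0332, with 1 of its 3 other probes called in the same direction). This call was lost without any 1 of 6 arrays (LWDL replicates 2, 7 and 8 and LWDM replicates 2, 3 and 6), where the difference lay between -1.22 and -0.95, and with the slide as a random block (-1.19, adjusted p = 0.0735). The mean over the adipocyte list was between 2.62 and 3.19 in LWDL and between 2.53 and 2.92 in LWDM pigs.

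The called growth factors and receptors were all higher in LWDL pigs. Of 18 named and tested genes 7 were called higher in LWDL and none higher in LWDM, the median difference was -0.76, and 7 of the 18 were listed genes. Of the 11 others 1 was called, with a median of -0.53. After normexp background correction and loess normalization 4 of the 18 were called. The mean over the list was between 0.90 and 1.36 on the LWDL arrays and between 0.24 and 0.64 on the LWDM arrays, so that they did not overlap. The 7 listed genes are part of this mean, so that its separation is not independent of how they were chosen. KIT, the receptor of stem cell factor in mast cells and melanocytes, was between 0.25 and 2.98 (median 1.90) in LWDL pigs and between -1.99 and 0.96 (median -0.88) in LWDM pigs. It was 5.31-fold higher in LWDL (difference -2.41 ± 0.48, adjusted p = 0.00158), although 3 of the 7 LWDM pigs lay above the lowest LWDL pig, at 0.49, 0.52 and 0.96. The probe was well above background on 5 of 7 LWDM arrays.

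AGT, the angiotensinogen that adipocytes secrete as the precursor of angiotensin, was between -1.29 and 0.18 (median -0.60) in LWDL pigs and between -2.61 and -1.44 (median -2.10) in LWDM pigs. The breed types were separate and LWDL pigs had 2.86-fold more (adjusted p = 0.000183). NGFR, the low-affinity receptor of nerve growth factor, and NRG2, a neuregulin, were also separate, with differences of -1.15 ± 0.16 and -1.10 ± 0.13. NRG2 was well above background on 2 of the 7 LWDM arrays. DKK2, a secreted regulator of Wnt signalling, was between 5.71 and 8.17 (median 7.26) in LWDL pigs and between 4.93 and 6.94 (median 5.68) in LWDM pigs (difference -1.31 ± 0.33, adjusted p = 0.00657). FGF2, basic fibroblast growth factor, and BTC, the EGF receptor ligand betacellulin, were just beyond 2-fold (-1.02 ± 0.09 and -1.03 ± 0.21). FGF2 came to -0.97 to -0.99 without LWDL replicate 2, 3 or 5 or LWDM replicate 3, and BTC to -1.0 to -0.93 without LWDL replicate 1, 3, 7 or 8 or LWDM replicate 2, 3 or 5, all under 2-fold. The other tested probe of BTC differed in the opposite direction (0.59) and was not called.

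Of those not called, GHR, the growth hormone receptor, was lower in every LWDM than in every LWDL pig, with a difference of -0.69 ± 0.11 (adjusted p = 0.000413) that was under 2-fold. IGF1, the growth factor that growth hormone induces, differed by 0.40 ± 0.14 in the opposite direction (adjusted p = 0.0361). NKD2, an inhibitor of Wnt signalling, was separate in favour of LWDM at 0.99 ± 0.08, just below the limit.

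**Figure D3:**
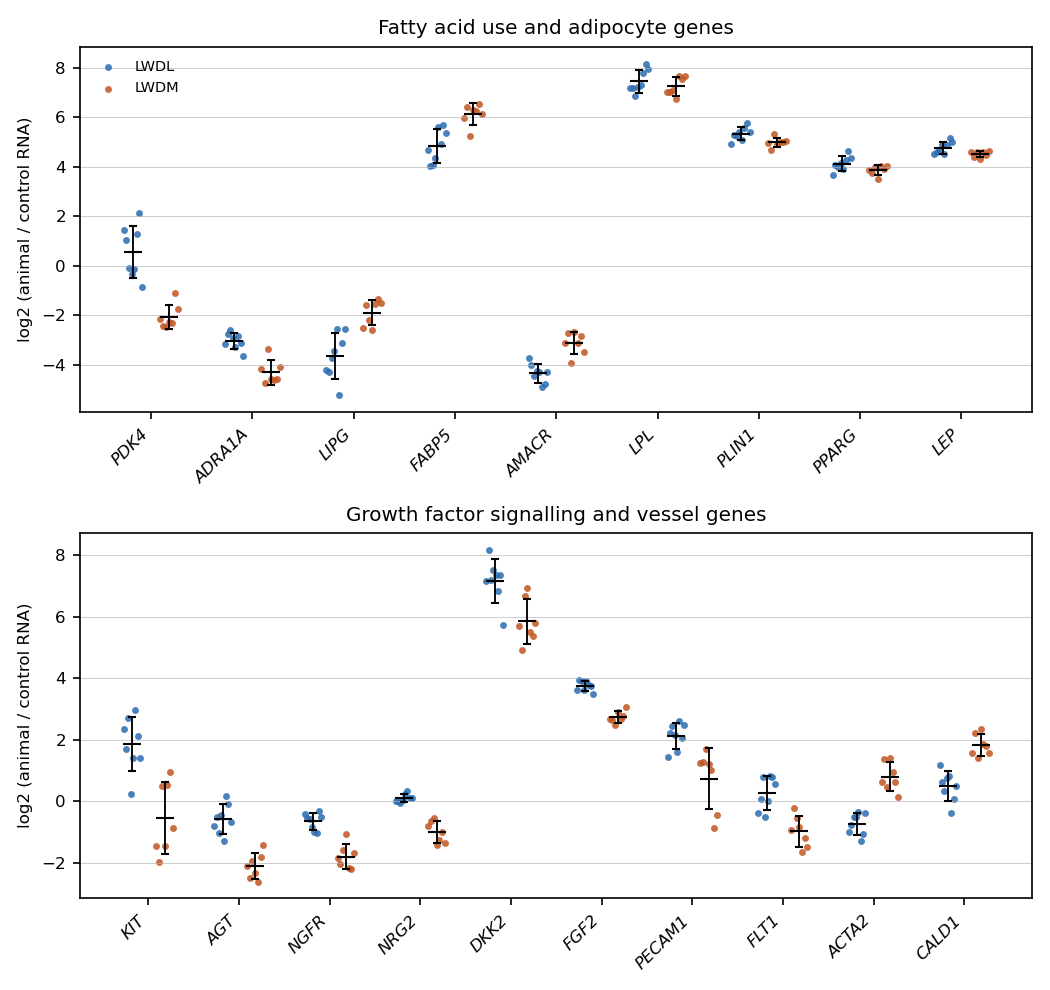
Level of 9 genes of fatty acid use and adipocytes (top) and 10 genes of growth factor signalling and vessels (bottom) on each array, as log2 of pig over control RNA. Points are single pigs (blue, 8 LWDL, and orange, 7 LWDM), with the mean and SD. PDK4, AGT, NGFR, NRG2 and FGF2 show LWDL points that all lie above the LWDM points, and ACTA2 and CALD1 the reverse.

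Genes of vessels were called in both directions. Of 13 named and tested genes 2 were called in each direction (median -0.21), where 3.08% of all tested probes were called. Of these 13, 2 were listed genes, and of the 11 others 2 were called (median -0.27). Over LWDL replicates 1 to 5 and LWDM replicates 1 to 6, 2 of the 13 were called, both higher in LWDM, and those higher in LWDL were lost (PECAM1 -1.04 and FLT1 -0.89). The other 9 included the endothelial genes MMRN2 (-1.11, adjusted p = 0.203) and CLEC1A (0.10) and the mural cell gene NOTCH3 (0.09). The endothelial adhesion molecule PECAM1 was higher in LWDL by 2.62-fold (difference -1.39 ± 0.35, adjusted p = 0.00598), and so was the VEGF receptor FLT1 (-1.25 ± 0.25, adjusted p = 0.00161), which was well above background on 4 of 7 LWDM arrays. CD34, a marker of endothelium and of fat progenitor cells, was between 3.45 and 4.07 (median 3.70) in LWDL pigs and between 2.48 and 3.11 (median 2.82) in LWDM pigs, a difference of -0.98 just under the limit. In contrast, the smooth muscle actin ACTA2 was between -1.28 and -0.34 (median -0.65) in LWDL pigs and between 0.13 and 1.39 (median 0.64) in LWDM pigs, with a difference of 1.53 ± 0.20 (adjusted p = 8.23e-05), and its 2 other probes were called in the same direction. The actin-binding protein caldesmon, CALD1, differed by 1.33 ± 0.20.

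Most tested genes of skeletal muscle were higher in the fat of LWDM pigs. Of 17 named and tested genes 14 were called higher in LWDM (median 1.63), and 15 of the 17 were listed genes. The 2 others were not called. MYH7, the slow myosin heavy chain, was between 1.76 and 3.24 (median 2.37) in LWDL pigs and between 2.92 and 5.23 (median 4.17) in LWDM pigs (difference 1.73 ± 0.27, adjusted p = 0.000347). MYLPF, the fast regulatory light chain, was between -0.41 and 3.52 (median 2.13) in LWDL pigs and between 2.16 and 4.35 (median 3.90) in LWDM pigs, and was well above background on 4 of 8 LWDL and 7 of 7 LWDM arrays. MYO18B, an unconventional myosin of muscle, had the largest fitted difference (2.25 ± 0.40) and was the one gene of the list without overlap. It was well above background on 3 of 8 LWDL arrays and was no longer called after normexp correction and loess. Of the 17 genes 8 were well above background on every array. TTN, the giant protein of the sarcomere, differed by 1.55 ± 0.53, SLN, a regulator of the calcium pump, by 2.02 ± 0.56, and the skeletal actin ACTA1 by 1.60 ± 0.56. The call of ACTA1 was lost without any 1 of 7 arrays, LWDL replicates 3, 5 and 6 and LWDM replicates 1, 3, 5 and 6 (1.30 to 1.59), and with the slide as a random block (adjusted p = 0.0716). That of TTN was lost without any 1 of 6, LWDL replicates 3, 5 and 6 and LWDM replicates 3, 4 and 5 (1.31 to 1.52), and with the slide (adjusted p = 0.0696), and 3 of its 4 other probes were called in the same direction. NEB (nebulin, 0.39), TNNT3 (0.73) and MYOM2 (1.14) did not pass the test, and the difference of NEB was -0.24 without LWDM replicate 3. The mean over the list ran from 0.57 to 3.1 in LWDL and from 2.42 to 4.42 in LWDM pigs, so that the breed types overlapped. The highest array of all was LWDM replicate 3, and LWDL replicates 7 (3.1) and 4 (2.30) were the highest of their group. Without LWDM replicate 3, 11 of the 17 were called and the median was 1.47, and without LWDL replicate 6 or with the slide as a random block 11 were called. After normexp correction and loess, 8 of 17 were called and the median was 0.98. How much muscle tissue the fat samples held was not tested.

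**Figure D4:**
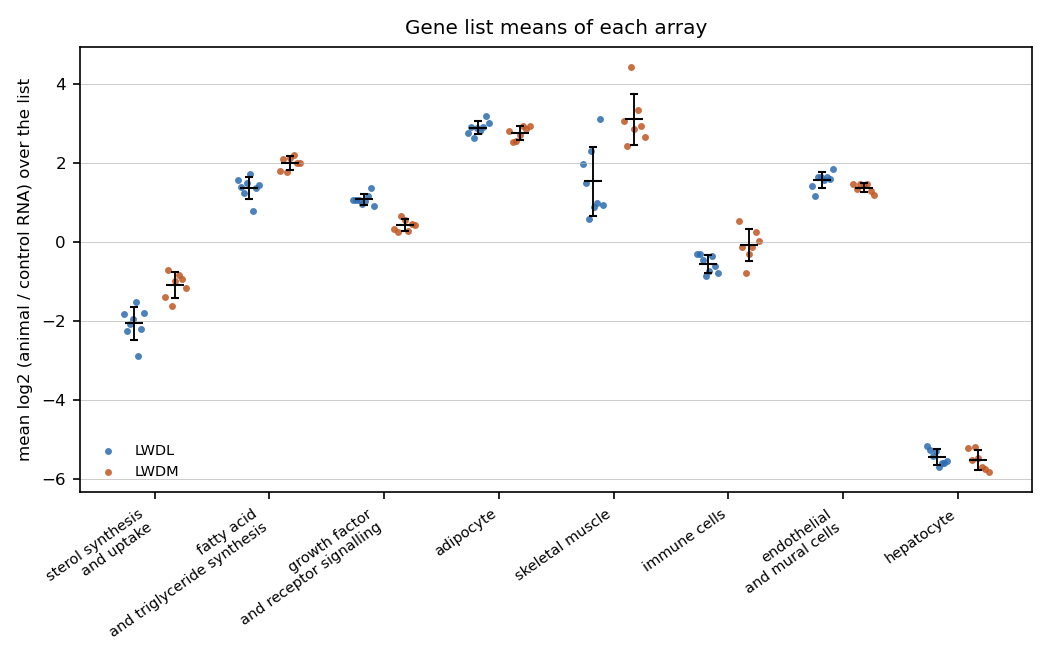
Mean log2 of pig over control RNA over the named genes of 8 lists (x axis), for each array. Points are single pigs (blue, 8 LWDL, and orange, 7 LWDM), with the mean and SD. Fatty acid synthesis and growth factor signalling separate the breed types, with listed genes among their members. Adipocyte and hepatocyte lists share a range. Skeletal muscle genes are widely spread, with LWDM replicate 3 highest at 4.42 and LWDL replicate 7 at 3.1.

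Most immune genes were not called, and those that were lay on the LWDM side. Of 19 named and tested genes 5 were called higher in LWDM, none was called higher in LWDL, and the median difference was 0.16. Of the 19, 2 were listed genes, and of the 17 others 3 were called (median 0.01). After normexp correction and loess 3 of the 19 were called. The mean over the list ran from -0.86 to -0.31 in LWDL and from -0.78 to 0.52 in LWDM pigs. HLA-DRB1 and HLA-DQA1 are the human names of class II chains that present peptides to T cells. Such genes have near-identical copies and many alleles, so that the signal of their probes is uncertain as a measure of one gene. HLA-DRB1 was between -1.54 and 0.39 (median -0.89) in LWDL pigs and between 2.20 and 3.82 (median 2.96) in LWDM pigs and was well above background on 7 of 7 LWDM and 0 of 8 LWDL arrays. LWDM pigs had at least 2.09-fold more, where the bound sets the LWDL arrays to their lowest detected signal, and the fitted difference was 3.65 ± 0.30 (adjusted p = 1.41e-06). HLA-DQA1 differed by 1.86 ± 0.55 and was seen on 6 of 8 LWDL arrays. LYZ, the lysozyme of macrophages and neutrophils, was between -1.87 and 1.79 (median -0.22) in LWDL pigs and between 1.14 and 3.34 (median 1.5) in LWDM pigs (difference 2.14 ± 0.48, adjusted p = 0.00305), seen on 5 of 8 LWDL arrays. CD180, a receptor of B cells, differed by 1.35 ± 0.30, whereas its other tested probe differed by 0.21 and was not called. The T cell genes CD3G (0.25), CD2 (-0.53) and CD8A (0.16) and the macrophage receptor CD163 (-0.43) did not pass the test. Nor did CXCL13, a chemokine that attracts B cells, which lay on the LWDL side (-1.27 ± 0.50, adjusted p = 0.0556) and was called in 4 of the 15 fits that left out 1 array. CIITA, the activator of class II genes, differed by -0.67 (adjusted p = 0.0203, under the 2-fold limit). Of 9 hepatocyte genes none was called with limma, 3 had an unadjusted p below 0.05, and 3 had an adjusted p below 0.05 with differences under 2-fold. All 9 differences were under 2-fold, so that no test could call one at this limit.

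Of 19 genes of the extracellular matrix and of CCN proteins, 4 were called on the LWDM side and 2 on the LWDL side (median 0.34). Of the 19, 5 were listed genes, and of the 14 others 2 were called (median 0.41). The CCN proteins are matricellular signals that respond to mechanical load and growth factors. CYR61 was between -2.47 and 0.05 (median -0.79) in LWDL pigs and between -0.50 and 0.82 (median 0.45) in LWDM pigs (difference 1.44 ± 0.33, adjusted p = 0.00346), and NOV differed by 1.18 ± 0.27. CTGF lay in the same direction at 0.78 ± 0.24, under the 2-fold limit. HMCN1, a fibulin-type matrix protein, differed by 1.26, and the glypican GPC5 by 1.25 ± 0.45, a call that was lost without any 1 of 9 arrays. These were LWDL replicates 1, 4, 5 and 6 and LWDM replicates 2, 3, 5, 6 and 7, and the difference then lay between 0.90 and 1.27. On the LWDL side, the glypican GPC6, a heparan sulfate proteoglycan of the cell surface, was between 0.93 and 2.74 (median 1.77) in LWDL pigs and between -1.62 and 0.55 (median -0.16) in LWDM pigs, which is 4.83-fold (adjusted p = 0.000354). The basement membrane protein nidogen, NID1, was 2.97-fold higher in LWDL without overlap (difference -1.57 ± 0.13, adjusted p = 1.48e-06).

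Among genes of the stress response and the clock, both directions were found. Of 14 named and tested genes 5 were called on the LWDM side and 2 on the LWDL side (median 0.47). Of these 14, 7 were listed genes, and of the 7 others 1 was called (median 0.15). The median of the 14 was 0.08 over LWDL replicates 1 to 5 and LWDM replicates 1 to 6, where 7 were called, and 0.21 after normexp correction and loess, where 4 were called. DDIT3, a factor of the endoplasmic reticulum stress response, was between 0.91 and 1.68 (median 1.26) in LWDL pigs and between 2.15 and 3.67 (median 2.59) in LWDM pigs (difference 1.38 ± 0.20, adjusted p = 0.000174). ATF3, an immediate stress factor, and ATF5 had fitted differences of 1.96 ± 0.53 and 1.33 ± 0.23. ATF5 was well above background on 2 of 8 LWDL arrays, and its difference was 0.28 and not called after normexp correction and loess. The chaperone HSPA8 differed by 1.43 ± 0.37, and SRXN1, which repairs oxidized peroxiredoxins, by 1.28 ± 0.30. TXNIP, a thioredoxin inhibitor that rises with glucose, was between 2.31 and 3.85 (median 3.22) in LWDL pigs and between 1.54 and 2.21 (median 2.10) in LWDM pigs, so that every LWDL pig was above every LWDM pig (difference -1.20 ± 0.22, adjusted p = 0.00089). The clock gene PER2 differed by -1.05 ± 0.17 (seen on 6 of 7 LWDM arrays), and by -1.0 to -0.96 without LWDL replicate 4 or LWDM replicate 4, 6 or 7.

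In smaller lists, the retinoid genes RARRES1, which retinoic acid induces, and CYP26B1, which breaks retinoic acid down, were 2 of 6 called, both higher in LWDM (1.48 ± 0.35 and 1.07 ± 0.35). Of the 6, 1 was a listed gene, and of the 5 others 1 was called. The call of CYP26B1 was lost without LWDL replicate 2 or 6 or LWDM replicate 3 or 6 (0.89 to 0.99). RBP4, the retinol carrier, was between -6.24 and -4.59 (median -5.52) in LWDL pigs and between -7.01 and -5.43 (median -6.17) in LWDM pigs and did not pass the test (difference -0.59 ± 0.26, adjusted p = 0.0816). Of 5 patterning transcription factors the called one was MESP2, the 1 listed gene among them, higher in LWDL (-1.09 ± 0.07, adjusted p = 7.66e-08). HOXA9, which sets position along the body axis, was spread over a wide range, between 0.31 and 4.87 (median 2.69) in LWDL pigs and between 1.31 and 6.82 (median 5.45) in LWDM pigs. Its difference of 2.06 ± 0.83 did not pass the test (adjusted p = 0.0592), but did so over LWDL replicates 1 to 5 and LWDM replicates 1 to 6 (2.54, adjusted p = 0.0445). At 12 days the difference of HOXA9 was 4.53 (adjusted p = 0.000107), and the test of the difference between ages did not pass (-2.47 ± 1.06, adjusted p = 0.121). SULF2, an extracellular sulfatase, and NRP1, a receptor of semaphorins and VEGF, differed by 0.34 ± 0.13 and 0.60 ± 0.18 and were not called. HOXA10 and SLC1A2 had no named probe among those tested.

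Several of the largest differences were found in genes outside these pathways. Of the 12 named genes with the largest differences towards LWDM, ADH1C, an alcohol dehydrogenase that also oxidizes retinol, had the smallest adjusted p. It was between -9.58 and -8.75 (median -9.14) in LWDL pigs and between -6.66 and -6.47 (median -6.55) in LWDM pigs, and its 4 other probes were called in the same direction (difference 2.62 ± 0.10, adjusted p = 3.86e-10). No pig had a value between -8.75 and -6.66. TCN1, a vitamin B12 binding protein, was between -5.34 and -1.89 (median -4.13) in LWDL pigs and between -1.80 and 1.92 (median -0.30) in LWDM pigs (difference 3.88 ± 0.65, adjusted p = 0.000516), with its 3 other probes called as well and 4 of 8 LWDL arrays well above background.

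CDH1, the epithelial adhesion protein E-cadherin, was between -7.97 and -5.13 (median -6.27) in LWDL pigs and between -3.37 and -2.20 (median -2.57) in LWDM pigs (fitted difference 3.78 ± 0.33, adjusted p = 2.17e-06), and it was well above background on 1 of 8 LWDL and 7 of 7 LWDM arrays. After normexp correction and loess the difference was 1.49. With so few LWDL arrays above background, the size of the fitted difference depends on how background was treated. Of 3 tested markers of skin or mammary epithelium CDH1 was the one called and the 1 listed gene, whereas LAMB3 differed by -0.87 and PPL by -0.24. SPACA1, a protein of the sperm acrosome, and DYDC1 were seen well above background on 1 of 8 LWDL arrays each, with fitted differences of 3.85 ± 0.43 and 3.82 ± 0.34 that came to 1.53 and 2.06 after normexp correction and loess. NT5E, the ecto-nucleotidase that makes adenosine, had a fitted difference of 2.68 ± 0.36 and was seen on 1 of 8 LWDL arrays. The histone gene HIST1H2AC differed by 3.13 ± 0.47, and the lysosomal mannosidase MAN2B2 by 2.57 ± 0.32, each seen on 5 of 8 LWDL arrays. GABPA, an ETS transcription factor, was well above background on no LWDL array and was at least 1.45-fold higher in LWDM (fitted difference 2.82 ± 0.18).

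Of the 12 genes with the largest differences towards LWDL, POLR3B, the second largest subunit of RNA polymerase III, had the smallest adjusted p. It was between 2.62 and 3.47 (median 2.90) in LWDL pigs and between -1.26 and -0.07 (median -0.65) in LWDM pigs, a difference of -3.67 ± 0.18 (adjusted p = 5.93e-09), with 5 of 7 LWDM arrays well above background. ATP8B2, a phospholipid flippase, was between 3.86 and 5.23 (median 4.62) in LWDL pigs and between -1.18 and 3.37 (median 0.53) in LWDM pigs and was well above background on 2 of 7 LWDM arrays (difference -3.70 ± 0.58, and -1.45 after normexp correction and loess). ADAMDEC1, a metalloprotease of macrophages, was well above background on 8 of 8 LWDL and 0 of 7 LWDM arrays. It was at least 2.10-fold higher in LWDL (fitted difference -3.15 ± 0.49), and ABHD4, a lipase of N-acyl phospholipids with the same pattern of detection, at least 1.47-fold (fitted difference -2.40 ± 0.30).

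The LWDM pigs were split for ATP6V0A4 and SNRPA1. ATP6V0A4, a subunit of the proton pump, was between 5.92 and 6.69 in LWDL pigs. LWDM replicates 1, 5, 6 and 7 were at 4.81, 5.57, 5.07 and 5.52, under that range, and replicates 2, 3 and 4 at 0.23, -1.24 and -0.28. SNRPA1, a protein of the U2 spliceosomal particle, was between -0.07 and 1.5 in LWDL pigs, and among the LWDM pigs replicates 3, 5 and 6 were at -4.71, -5.05 and -5.22 while the other 4 were between -0.32 and -0.12. The low pigs of the 2 genes were not the same ones, with replicate 3 in common. The sizes of the group differences, -3.46 ± 0.98 and -2.89 ± 0.84, depend on the low pigs, although the other LWDM pigs also lay below every LWDL pig. The neuronal adhesion protein CNTN1 differed by -2.34 ± 0.32, the small adaptor proteins BEX4 and BEX2 by -2.13 ± 0.21 and -2.08 ± 0.15, and MPZL1, a cell surface glycoprotein, by -2.03 ± 0.34 (seen on 5 of 7 LWDM arrays). The other tested probe of MPZL1 differed in the opposite direction (0.44) and was not called.

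Some of these calls depend on how the background was removed or on the arrays used. After normexp background correction and loess, the differences of ATF5 (0.28), LPCAT4 (-0.38), NRG2 (-0.39), PER2 (-0.40), GABPA (0.58), FLT1 (-0.60), ABHD4 (-0.62), CD180 (0.64), GPAM (0.66), MYO18B (0.73), CYP26B1 (0.73), MESP2 (-0.74), HMCN1 (0.75), NT5E (0.78), HLA-DQA1 (0.78) and FAM84A (0.83) were no longer called, nor were those of SRXN1, BTC, NOV, INSIG1 and FGF2, which came to sizes of 0.90 and above. They kept their signs. Other calls were kept with smaller differences, mostly of probes that were not well above background on every array of 1 breed type. These were HLA-DRB1 (1.17), LYZ (1.11), TCN1 (2.33), HIST1H2AC (1.99) and MAN2B2 (1.54) on the LWDM side. On the LWDL side they were POLR3B (-2.16), ADAMDEC1 (-1.20), SNRPA1 (-1.25), KIT (-1.59), MPZL1 (-1.05) and, with all arrays well above background, BEX4 (-1.47) and GPC6 (-1.58). ACTA1 was larger (2.23). Over LWDL replicates 1 to 5 and LWDM replicates 1 to 6 the calls of SCD (0.76), NOV (0.78), FLT1 (-0.89), HMGCS1 (0.90), NRG2 (-0.99), PECAM1 (-1.04), PCK1 (-1.16), AMBN (1.29), ATF3 (1.37), GPC5 (1.43) and HLA-DQA1 (1.72) were lost. With the slide as a random block the calls of CYP26B1, GPC5 and ANK1 were lost besides those of PCK1, ACTA1 and TTN.

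To test whether these differences were particular to fat, the breed difference of fat was compared with those of the liver and muscle from pigs of the same age and number. The difference in fat minus that in liver was called for 1072 of 30590 probes (3.5%), and that against muscle for 725 (2.37%). In the liver itself 704 of 32099 probes (2.19%) differed between breed types and in muscle 427 of 30401 (1.4%). Of the 942 probes called in fat, 73 were called in the same direction in liver and muscle too. Of the 809 called probes that could be tested in liver, 152 were called there in the same direction and 8 in the opposite one, and of the 766 tested in muscle 136 and 1. Arrays of the same number and age resembled each other across the 3 tissues, so that these counts may not come from independent animals. The SE and adjusted p of the comparisons between tissues treat the arrays as independent.

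The differences of several sterol genes were larger in fat than in the other tissues. Of the 16 genes, 7 differed from liver and 6 from muscle by a called difference, all towards LWDM in fat, and the median of the list was -0.05 in liver and 0.10 in muscle. INSIG1 differed between breed types by -0.41 in liver and -0.26 in muscle, and the difference in fat exceeded these by 1.43 ± 0.26 (adjusted p = 0.000277) and 1.29 ± 0.24 (adjusted p = 0.000654). Of the 18 genes of fatty acid and triglyceride synthesis, 7 differed from liver and 3 from muscle. Against muscle all 3 were further towards LWDM in fat, and against liver 4 were, whereas SREBF1 (-1.29), ACSL4 (-1.04) and LPCAT4 (-1.0) were further towards LWDL. SREBF1 was higher in LWDM in liver (1.39), and so was the acyl-CoA synthetase ACSL4 (1.64, and 0.60 in fat). PNPLA3 was higher in LWDM in liver too (1.58), and its difference in fat was beyond that of muscle by 2.10 ± 0.46 but not detectably beyond that of liver (0.72, adjusted p = 0.365).

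In the fitted values CDH1, TCN1, ADH1C, NT5E and SPACA1 exceeded both tissues. All of these but ADH1C were dim on some or most LWDL fat arrays and were tested only because every LWDM fat array was well above background. NT5E was no longer called in fat after normexp correction and loess. For CDH1 the fitted excess was 4.01 ± 0.41 over liver and 3.63 ± 0.39 over muscle, and for ADH1C 2.16 ± 0.14 and 2.28 ± 0.16. After normexp correction and loess the excess of CDH1 was 1.75 and 1.35, and both were called. The probe of SPACA1 was too dim for the test within muscle. On the LWDL side, NGFR, BEX4, BEX2, CNTN1, MPZL1 and PDK4 were called against both. By contrast the differences of POLR3B (-3.15 in liver and -1.98 in muscle), MAN2B2 (3.04 and 3.24) and HLA-DRB1 (3.58 and 2.47) were called in the same direction in both tissues, although that of POLR3B was smaller in muscle (fat beyond muscle by -1.68 ± 0.26). The enamel gene AMBN showed opposite signs, with 2.05 ± 0.69 in fat, -3.26 in liver and -1.84 in muscle, where the probe was too dim for the test within the tissue. Its call in fat was lost without LWDM replicate 1 (1.78) or 6 (1.91).

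Fat at 12 days was used to test whether the difference depended on age. The arrays of the 2 ages were scanned on different days, so that age and scan cannot be told apart. In addition, a column of the study's gene tables headed 12 days matched 11 of the fat arrays labelled 5 months. The labels were followed, and with the ages exchanged each difference between ages given here would have the opposite sign. The difference at 5 months minus that at 12 days was called for 1107 of 30590 probes (3.62%). At 12 days 450 of 30636 probes (1.47%) differed between breed types. Of the 809 probes called at 5 months that could be tested there, 60 were called in the same direction and 14 in the opposite one. The sterol list had a median of 0.01 at 12 days, and 6 of its 16 genes differed between ages by a called difference, among them INSIG1 (1.38 ± 0.32, adjusted p = 0.00671) and MVD (1.29 ± 0.39).

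For ACLY and PDK4 the differences at the 2 ages had opposite signs. ACLY was lower in LWDM at 12 days (-2.21) and higher at 5 months (1.65), a difference of 3.86 ± 0.48 (adjusted p = 3.4e-05). PDK4 was the reverse, with 2.01 at 12 days, which did not pass the test (adjusted p = 0.0596), and -2.63 at 5 months (-4.64 ± 0.70, adjusted p = 0.00024). CNTN1 went from 1.34 to -2.34. FAM84A went from -2.07 (adjusted p = 0.0723) at 12 days to 2.25 at 5 months, and DAPL1 from -4.64 to 0.51, where the latter did not pass the test (adjusted p = 0.0972). In contrast KIT (-2.38 and -2.41) and ATP8B2 (-4.06 and -3.70) had values at 12 days near those at 5 months, and the tests of the age difference (-0.03 ± 0.70 and 0.36 ± 0.97) did not pass.

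**Figure D5:**
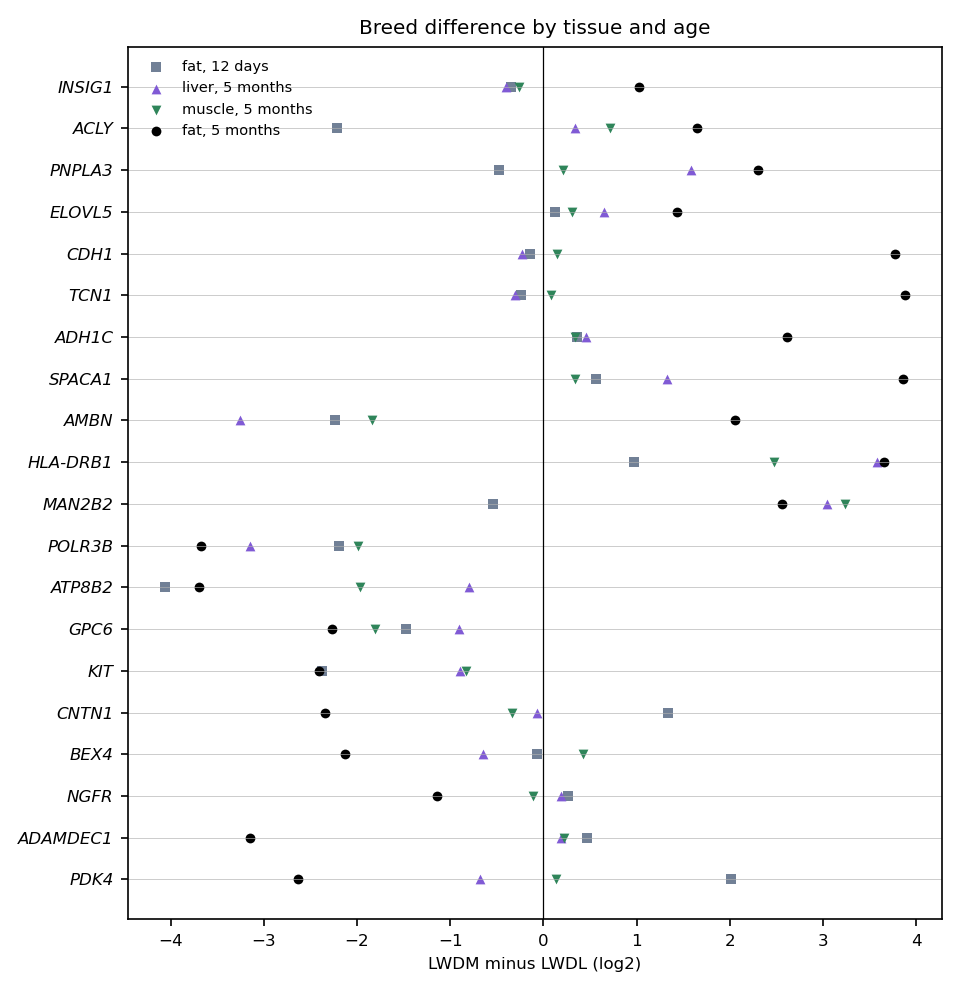
Difference between LWDM and LWDL pigs (x axis, log2) of selected genes in fat at 5 months (black circles), fat at 12 days (grey squares), liver at 5 months (purple triangles) and muscle at 5 months (green triangles). INSIG1 lies apart in fat at 5 months, and so does CDH1, a fitted value with 1 of 8 LWDL fat arrays well above background. HLA-DRB1, MAN2B2 and POLR3B keep their sign across the tissues of that age, and ACLY and PDK4 have opposite signs at the 2 ages.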

How the data were processed

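Liver, muscle and subcutaneous fat of crossbred female pigs were measured on Agilent 2-colour arrays with 1 pig (Cy3) and a common control (Cy5) on each. The deposited scanner files hold, per the file headers, the output of Feature Extraction 9.5.3.1 (9.5 in the submitters' notes), with spot intensities and a LogRatio, which is log10 of red over green after the background subtraction and dye normalization that the authors ran. The series table of the authors holds the same log10 ratios to 0.005. A level is minus LogRatio converted to log2, without further normalization, over 43221 probes (1417 control spots left out). Tested were probes that in 1 or both breed types were well above background on all arrays and had values on at least 3 arrays of each. Groups were those of the labels. Differences were fitted with limma 3.58.1 in R 4.3.3 (lmFit, eBayes) with Benjamini-Hochberg adjustment over all tested probes and called beyond 2-fold at an adjusted p below 0.05. Interactions of breed type with tissue or age were called likewise. The procedure was tested on simulated data. Normexp (offset 50) with loess, the Student test, slide and replicate blocks, dim-probe filters and arrays left out were tried as alternatives. Dye bias cannot be separated from the ratio, as dyes were not exchanged, and the number of arrays limits the precision.

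Gene symbols came from the study's supplementary gene tables. Of these, the column headed 12 days matched 11 of the fat arrays labelled 5 months (median distance 1.11e-06 on the log2 scale over 546 probes), and the labels of the arrays were followed, in part because of the match with liver and muscle. A gene is represented by its brightest tested probe, or by the brightest called one where the rule selects called probes. Genes were named by 4 rules: the study's own short table for fat, the 12 largest separated differences in each direction, members of the lists, and the 5 largest interactions in each direction. The members and lists were chosen with earlier results of these data known. Promoter motifs were not analysed here, and some genes that the rules select are not reported here.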

Additional observations from a re-analysis of the deposited data

Results flagged for a closer look

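A single array stood apart from the rest of its breed type in 21 of 288 groups examined (a gene or a list mean in 1 breed type), by the ratio of its gap to the whole range (above Dixon's 95% critical value). Chance marks about 1 group in 20. In 7 of the 21 the array was LWDL replicate 6. It was the lowest of its breed type for FASN (1.20, next 2.50), FDPS (-2.23, next -1.58), ME1 (4.08, next 5.59), SCD (2.10, next 3.79) and SRXN1 (-1.84, next -0.32), and the highest for CIITA (3.00, next 2.02) and RIMS1 (-0.38, next -1.73). LWDM replicate 3 was the highest for the muscle genes NEB (8.09, next 4.52), MYOM2 (3.08, next 1.11) and MYO18B (1.69, next 0.27) and for the ankyrin ANK1 (2.25, next -0.20). LWDL replicate 7 was the highest for the fast troponins TNNI2 (1.25, next -0.47) and TNNT3 (2.25, next 0.89) and for the mean over the patterning transcription factors (1.90, next 1.26). LWDL replicate 2 was the highest for LPCAT4 (0.17, next -0.36) and the lowest for MMRN2 (-2.74, next 0.50) and TOM1 (-2.64, next 1.02). For TOM1 LWDM replicate 5 was the highest (1.02, next -2.08). The remaining ones were LWDM replicate 4 for CLEC1A (3.40, next 3.04), LWDM replicate 2 for ESRRG (-4.30, next 0.00) and LWDL replicate 8 for PAPLN (0.29, next 1.14).

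The breed difference in fat differed from that in the liver of the same age (difference in fat minus difference in liver, LWDM minus LWDL) most strongly for these named genes. On the LWDM side of fat they were AMBN (5.31 ± 0.90 SE), TCN1 (4.19 ± 0.90), CDH1 (4.01 ± 0.41), GSTA3 (3.57 ± 0.44) and ANK1 (3.25 ± 0.67). GSTA3, a glutathione transferase, did not pass the test in fat (0.02, adjusted p = 0.841) and was lower in LWDM in liver (-3.54). On the LWDL side they were PAPLN (-5.14 ± 0.20), ESRRG (-3.96 ± 1.10), ATP6V0A4 (-3.95 ± 1.04), DNER (-3.60 ± 0.72) and FHDC1 (-3.43 ± 0.33). PAPLN, a matrix protein, was -0.50 in fat (adjusted p = 0.0316) and 4.64 in liver, and the Notch ligand DNER was -0.21 in fat and 3.39 in liver. The probes of ATP6V0A4 and ESRRG, an orphan nuclear receptor, were too dim for a test within liver. ESRRG was not called over the 11 arrays of LWDL replicates 1 to 5 and LWDM replicates 1 to 6 (-3.25).

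Against muscle, the differences were AMBN 3.89 ± 0.86, TCN1 3.80 ± 0.70, CDH1 3.63 ± 0.39 and SPACA1 3.51 ± 0.47 on the LWDM side. ADAMDEC1 (a fitted -3.37 ± 0.56), ESRRG (-3.13 ± 0.87), PDK4 (-2.77 ± 0.64), CHGB (-2.69 ± 0.68) and BEX4 (-2.56 ± 0.26) lay on the LWDL side. AMBN, SPACA1, ADAMDEC1 and DNER had probes too dim for a test within muscle. ADAMDEC1 was also well above background on no LWDM fat array, so that its fitted values against muscle and 12 days are no measured sizes. CHGB, a granin of neuroendocrine cells, was 0.11 in fat (adjusted p = 0.814) and 2.80 in muscle. Over the 11 arrays CHGB (-2.52) and ESRRG (-3.11) were not called.

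Between 5 months and 12 days, the differences were DAPL1 5.16 ± 1.00, FAM84A 4.32 ± 0.71, AMBN 4.29 ± 0.95, TCN1 4.12 ± 0.91 and CDH1 3.92 ± 0.46 towards LWDM at 5 months. PDK4 (-4.64 ± 0.70), CNTN1 (-3.68 ± 0.45), ADAMDEC1 (a fitted -3.62 ± 0.65), TOM1 (-3.34 ± 1.05) and RIMS1 (-3.32 ± 0.50) were towards LWDL. RIMS1, a protein of synaptic release, was -1.96 at 5 months (-1.02 after normexp and loess) and 1.36 at 12 days. The value of TOM1 fell to between -3.28 and -3.16 and was not called without any 1 of 8 arrays, LWDL replicates 4, 6, 7 and 8 and LWDM replicates 1, 2, 6 and 7, nor was it over the 11 arrays (-2.77). The probes of CDH1, TCN1 and SPACA1 were too dim for a test within fat at 12 days. All adjusted p of the differences from liver, muscle and 12 days given here, from limma over 30590 probes, were below 0.05. After normexp and loess they were still called. Some were then far smaller, among them CDH1 (1.75 against liver, 1.35 against muscle and 1.31 against 12 days), SPACA1 (1.42), ADAMDEC1 (-1.24 against muscle and -1.48 against 12 days), DNER (-1.41) and CHGB (-1.07).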

How the results depend on the processing

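The 942 calls were 897 with the methods' Student test after Benjamini-Hochberg adjustment, 943 with a variance trend and robust fit, 943 from the authors' series table, 949 in one fit over all fat arrays and 888 with the slide as a random block, of which 883 were among the 942. Without the filter on dim probes 1288 of 43221 were called, and among the 28991 probes well above background on every array 658. After normexp correction and loess 460 were called, with 301 on the LWDM and 159 on the LWDL side, instead of 540 and 402. The 11 arrays of LWDL replicates 1 to 5 and LWDM replicates 1 to 6 gave 683 calls, 342 and 341. With no fold threshold 12103 were called. Leaving out 1 array at a time gave between 788 (without LWDL replicate 6) and 1170 (without LWDM replicate 3), and 618 probes were called each time. Against liver, 1072 calls became 678 with the 11 arrays and 600 with normexp and loess, and 896 to 1253 leaving out 1 array. Against muscle, 725 became 459 and 382, and 586 to 937. Against 12 days, 1107 became 617 with normexp and loess, 780 with the 11 arrays, and 1017 to 1404. The cause was not tested.

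The replicate number as a replicate block gave 914 calls in fat. LWDL and LWDM pigs of the same number deviated from their group means with correlations from -0.17 to 0.29 over 7 numbers. Whether they share more than a number was not tested. Across tissues, with each tissue, breed type and age centred by itself, every fat array resembled most the array of its own number among those of its age, and with the animal as a replicate block 1131 probes were called against liver and 796 against muscle.

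Of 130 named probes in fat, 104 kept direction and side of the threshold after normexp and loess and 23 lost their call, with the 11 arrays 113 kept it, and with the slide as a random block 124 kept it and 6 lost their call. All values that changed sign were of uncalled genes. They were DNER (0.035), GSTA3 (-0.016) and LEP (0.018) after normexp and loess and CD36 (0.014) and LPL (0.029) with the 11 arrays. Leaving out 1 array, CD36 ranged from -0.052 to 0.0039, CHGB from -0.16 to 0.27, G0S2 from -0.15 to 0.10, GSTA3 from -0.024 to 0.048, NEB from -0.24 to 0.59 and SREBF2 from -0.042 to 0.075. Signal over background (2.91 to 4.70 as a median per array) limits what could be seen of dim probes.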
